A study of Mus musculus with 18 samples.

Results

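Interferon-stimulated genes are the genes that cells switch on when an interferon binds its receptor. The 38 examined here were a listed set of type I and type II interferon-induced genes, taken by symbol. All 38 were among the 24419 gene symbols of the deposited table and all 38 were among the 13333 genes tested. The rule that picks them uses their names and no measured value, though the set was proposed with earlier results of these data known.

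The data are RNA-seq of poly-A RNA from the heart of 18 male C57BL/6 mice, 8 weeks old, anaesthetised with sodium pentobarbital. Acute myocardial infarction (AMI) was made by tying off the left anterior descending artery of the heart near its origin. Infarct left ventricle was taken 10 min, 1 h, 6 h, 24 h and 72 h later, with 3 mice at each time, and 3 control mice served as the sham group. No transgene, knockout or drug differed between these groups, each mouse gave 1 library, and each AMI group differed from the control group in ligation and time together. Levels are FPKM, that is, sequenced fragments divided by transcript length and by the number mapped in the library, which puts genes of different length on a common scale.

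Type I interferons are released by cells that sense foreign or misplaced nucleic acid, and signal through a receptor of the chains IFNAR1 and IFNAR2 to a complex that holds STAT2 and IRF9. That complex binds the interferon-stimulated response element, a short sequence near the start of its target genes. Interferon gamma, the type II interferon of T and NK cells, signals through IFNGR1 and IFNGR2, and its targets often hold a second element, the gamma-activated site. In the infarcted heart, DNA from dying cells taken up by macrophages is known to trigger a type I interferon response, which was not tested here.

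The promoters show how widely the members share the first of these elements. RefSeq promoter sequences, 250 bases before to 50 after the transcription start on GRCm38.p6, were at hand for 29 of the 38 members. The element core GAAANNGAAA, searched on both strands, was present in 18 of the 29, or 62.1%, against 3.99% of 27025 genes with a promoter in the same table. The gamma-activated site TTCNNNGAA, which reads alike on both strands, was present in 10 of the 29, or 34.5%, against 9.55% of all genes. The promoters that follow are of the members that led their role group at 72 h and held the core, which is in capitals, and each reads 5′ to 3′ on the strand of its gene. Where the core lies on the opposite strand its reverse complement is in capitals, and a run of capitals longer than 10 bases holds overlapping cores. Isg15 lies at chr4:156200819-156200968, Oas3 at chr5:120777662-120777809 and Bst2 at chr8:71537473-71537622, all on the minus strand. Gbp3 lies at chr3:142559894-142560025 on the plus strand, and 30 bases of Irgm1 at chr11:48871428-48871457 on the minus strand.
Isg15: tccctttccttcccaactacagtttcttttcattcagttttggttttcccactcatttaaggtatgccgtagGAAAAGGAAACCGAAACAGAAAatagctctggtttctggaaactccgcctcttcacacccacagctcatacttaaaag
Oas3: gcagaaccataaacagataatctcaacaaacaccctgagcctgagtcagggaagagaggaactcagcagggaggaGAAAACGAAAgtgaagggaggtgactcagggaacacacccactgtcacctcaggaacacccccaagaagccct
Bst2: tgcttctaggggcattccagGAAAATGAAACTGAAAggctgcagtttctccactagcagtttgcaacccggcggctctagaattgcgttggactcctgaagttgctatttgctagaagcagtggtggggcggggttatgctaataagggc
Gbp3: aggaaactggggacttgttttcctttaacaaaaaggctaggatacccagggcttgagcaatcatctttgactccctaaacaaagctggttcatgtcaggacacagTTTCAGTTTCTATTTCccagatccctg
Irgm1: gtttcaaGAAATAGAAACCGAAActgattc

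The 3 other guanylate-binding protein genes, which with Gbp3 were called lower at 6 h and 24 h, held the core too. Their 30-base stretches around it, on the plus strand, lie at chr3:142620594-142620623 for Gbp2, chr3:142496759-142496788 for Gbp5 and chr3:142530273-142530302 for Gbp7.
Gbp2: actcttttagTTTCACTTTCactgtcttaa
Gbp5: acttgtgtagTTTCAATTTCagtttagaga
Gbp7: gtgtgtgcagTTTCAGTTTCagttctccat

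Isg15 held 3 overlapping cores, beginning 78, 72 and 66 bases before its start, and Oas3 held 1, beginning 75 bases before. The matches describe these letters in these windows and are not measured binding sites. No core was found in the window of Ifit2, Irf1, Irf7, Irf9, Oasl1, Oasl2, Cmpk2, Ifi44, Ifi35, Xaf1 or Tap1. The promoters of Usp18, Mx1, Mx2, Oas2, Dhx58, Zbp1, Iigp1, Parp14 and Rtp4 were not analysed here.

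The members rose together at 72 h. Of the 38, 35 were higher than in the control mice and 0 lower (limma, adjusted p under 0.05), beside 53.1% of all tested genes called higher and 24.2% called lower in that comparison. The 3 not called were Gbp5, Gbp7 and Iigp1. The median log2 fold change of the members was 1.27, against 0.29 for all genes tested. Among the 38 genes, 36 had their highest group mean at 72 h, or 94.7%, against 49.9% of all genes. The other 2, Gbp5 and Iigp1, had it in the control group.

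The median of all genes lay above 0 at 72 h, so the reference level bears on these counts. Median-of-ratios scaling lowered the median change of all genes by 0.25 and quantile normalization by 0.39. Called genes then split into 39.3% higher and 35.7% lower with the former and 32.9% higher and 42.8% lower with the latter. The members stayed above the rest by about the same amount, with a median 0.99 above that of all genes as deposited, 0.97 with the former and 0.95 with the latter. Of the members, 33 and 31 were then called higher, and Gbp5 and Iigp1 were called lower under both. Irf1 turned below 0 under both, and Ifi35 under quantile normalization. Without control replicate 1, Gbp5 and Iigp1 were likewise called lower, and 35 members stayed higher without any 1 of the 6 mice.

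Before 72 h few members were called. At 10 min limma called 0 of the 38 higher and 0 lower, beside 0.248% and 0.0978% of all genes, and an unadjusted p under 0.05 would take in 1 higher and 4 lower. Of the 38 changes at that time, 33 were below 0, with a median of -0.10 against 0.02 for all genes. After 1 h it again called 0 and 0, beside 0.669% and 0.0526% of all genes, and the unadjusted p would take in 0 higher and 7 lower. There 34 of the changes were below 0, with a median of -0.13 against -0.02 for all genes. The shares of all genes with an unadjusted p under 0.05, or with a change below 0, were not counted at 10 min or 1 h. These counts of members therefore lack a reference. By 6 h, 3 were called higher (Oas3, Ifitm3 and Irf9) and 9 lower, beside 11.6% and 16.8% of all genes. By 24 h, 8 were called higher (Oas3, Isg15, Oas1a, Ifitm3, Bst2, Dhx58, Irf9 and Mx1) and 4 lower (Gbp2, Gbp3, Gbp5 and Gbp7), beside 26.2% and 11.4% of all genes. Without any 1 control mouse, 1 or 2 members were called higher at 24 h in place of 8, and 1 at 6 h in place of 3. The share of all genes called higher fell too, to between 9.47% and 12.4% at 24 h and between 5.73% and 6.58% at 6 h. The median change of the members was -0.18 at 6 h and 0.13 at 24 h, against -0.08 and 0.13 for all genes. Whether the mice of 2 groups overlapped gives the same order without a fit. At 10 min no member lay above the control mice in all 3 mice and 6 lay below in all 3, beside 12.2% and 8.15% of all genes. The numbers were 0 and 7 for the 1 h mice, beside 7.41% and 10.9%, then 4 and 14 for the 6 h mice, beside 18.6% and 30.2%. They were 12 and 4 for the 24 h mice, beside 39.3% and 18.9%, and 35 and 0 for the 72 h mice, beside 55.1% and 25.4%. At 6 h the share of members lying below was near that of all genes, and at 24 h the shares of members lying above and below were under those of all genes.

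The 5 comparisons with control share the same 3 control mice and are not independent of each other. With 3 mice a group the exact permutation test cannot go below p = 0.1, so the adjusted p-values stand on the limma fit across all genes.

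**Figure D1:**
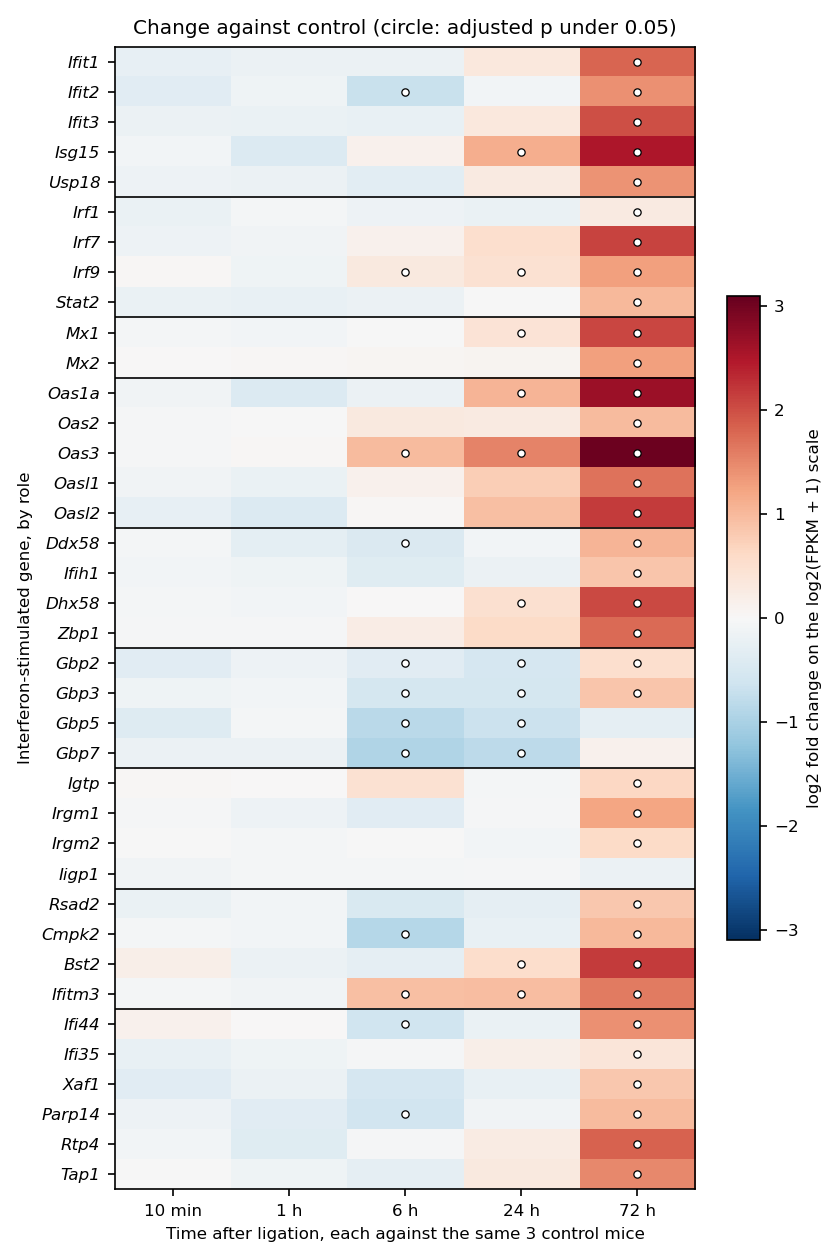
Rows are the 38 interferon-stimulated genes grouped by role, columns the 5 times after ligation, and colour the log2 fold change against the control mice on the log2(FPKM + 1) scale; a circle marks an adjusted p under 0.05. The 72 h column carries 35 circles, all red on the FPKM as deposited though Irf1 and Ifi35 turn sign under another scaling, and the 4 guanylate-binding protein rows are blue with circles at 6 h and 24 h.

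The first role group holds the IFIT proteins, which bind foreign RNA, the ubiquitin-like protein ISG15, and USP18, which removes ISG15 and blocks the type I receptor. Isg15 (chr4:156199424-156200818 on mm10, minus strand) had 4.01, 2.78 and 4.57 FPKM in the 3 control mice and 28.4, 24.1 and 25.3 at 72 h. Every 72 h mouse was thus above every control mouse, at 6.84 times the control mean, with a log2 fold change of 2.51 ± 0.14 (SE, n = 3 per group, limma adjusted p = 7e-07). At 24 h it had 7.22, 6.02 and 17.9 FPKM, all 3 above the control mice, and was called higher by 1.12 ± 0.37 (limma adjusted p = 0.049). That call held under 6 of the 15 alternatives, and was lost with no filter, either scaling, equal FPKM sums or no variance trend, and without any 1 control mouse or 24 h replicate 1. Usp18, which changed least in this group on the log2(FPKM + 1) scale, had 1.42, 1.18 and 1.23 FPKM in the control mice and 4.84, 5.47 and 4.75 at 72 h. Its groups did not overlap either, and its log2 fold change was 1.40. By the ratio of means Ifit2 changed less, at 2.83 against 3.94 for Usp18. Ifit3 and Ifit1 rose by 2.01 and 1.80 at 72 h, and neither passed the test at 6 h or 24 h.

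Ifit2, which binds RNA as its relatives do, fell before it rose. It had 11.0, 12.2 and 13.0 FPKM in the control mice, 8.64, 7.15 and 5.63 at 6 h, and 36.0, 35.0 and 31.5 at 72 h. All 6 h mice were below and all 72 h mice above the control mice. The log2 fold change was -0.70 ± 0.15 at 6 h (limma adjusted p = 0.014) and 1.43 ± 0.08 at 72 h.

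The transcription factors of the response formed the second group. Irf7, which amplifies interferon production, had 4.41, 5.71 and 5.85 FPKM in the control mice and 32.9, 21.9 and 23.8 at 72 h. Those groups were apart, and the log2 fold change of 2.09 was the largest of the 4 factors. Irf9, the DNA-binding part of the STAT complex, was higher by 0.30 at 6 h, by 0.46 at 24 h and by 1.27 at 72 h, and its partner Stat2 rose by 1.00 at 72 h. The early calls of Irf9 held under only 6 of the 15 alternatives at 6 h and 7 at 24 h, and that at 24 h was lost under both other scalings. Irf1 had 14.8, 17.3 and 15.6 FPKM in the control mice and 18.7, 19.1 and 20.3 at 72 h. The groups did not overlap, yet its change was only 0.27 ± 0.08 (limma adjusted p = 0.011), and it turned to -0.03 under median-of-ratios scaling and to -0.07 under quantile normalization.

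Both Mx genes rose in RNA at 72 h. Mx1 had 0.103, 0.0959 and 0.203 FPKM in the control mice, 0.326, 0.493 and 0.761 at 24 h and 3.998, 3.88 and 3.43 at 72 h. The 3 groups did not overlap, and the mean at 72 h was 28.1 times the control mean. Its log2 fold change of 2.07 understates that ratio, because the control level lies below the 1 added before taking logs. The call of Mx1 as higher at 24 h held under 7 of the 14 alternatives that tested it. Mx2 had 1.25, 1.79 and 1.83 FPKM in the control mice and 6.55, 5.09 and 4.51 at 72 h, again apart, with a log2 fold change of 1.28.

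The oligoadenylate synthetases make a small nucleotide that activates RNase L against foreign RNA, and Oas3 among them held the largest 72 h change of the set. Oas3 (chr5:120753098-120777661, minus strand) was nearly absent at the start, with 0.0888, 0.0909 and 0.160 FPKM in the control mice. It had 2.68, 0.675 and 0.677 FPKM in the 6 h mice, 1.63, 0.826 and 5.87 in the 24 h mice and 8.82, 8.09 and 7.55 in the 72 h mice. Each later group lay above the control mice, but the 6 h and 24 h mice overlapped, with 1 high mouse in each. The log2 fold change was 0.97 ± 0.29 at 6 h (limma adjusted p = 0.043), 1.53 ± 0.44 at 24 h (limma adjusted p = 0.033) and 3.04 ± 0.09 at 72 h (limma adjusted p = 2.6e-08), where the ratio of means was 72.1.

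Oas1a followed Oas3 without the change at 6 h. It had 2.67, 2.88 and 3.23 FPKM in the control mice, 6.04, 5.58 and 10.7 at 24 h and 26.1, 23.1 and 22.2 at 72 h. The 3 groups were apart, with log2 fold changes of 1.06 ± 0.22 at 24 h and 2.66 ± 0.09 at 72 h. The OAS-like genes Oasl2 and Oasl1 rose by 2.16 and 1.69 at 72 h. At 24 h their changes of 0.94 and 0.75 had limma adjusted p-values of 0.057 and 0.082. Oas2 changed least, from 2.13, 1.89 and 2.28 FPKM in the control mice to 6.43, 4.09 and 5.07 at 72 h, which were apart, with a log2 fold change of 0.98.

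**Figure D2:**
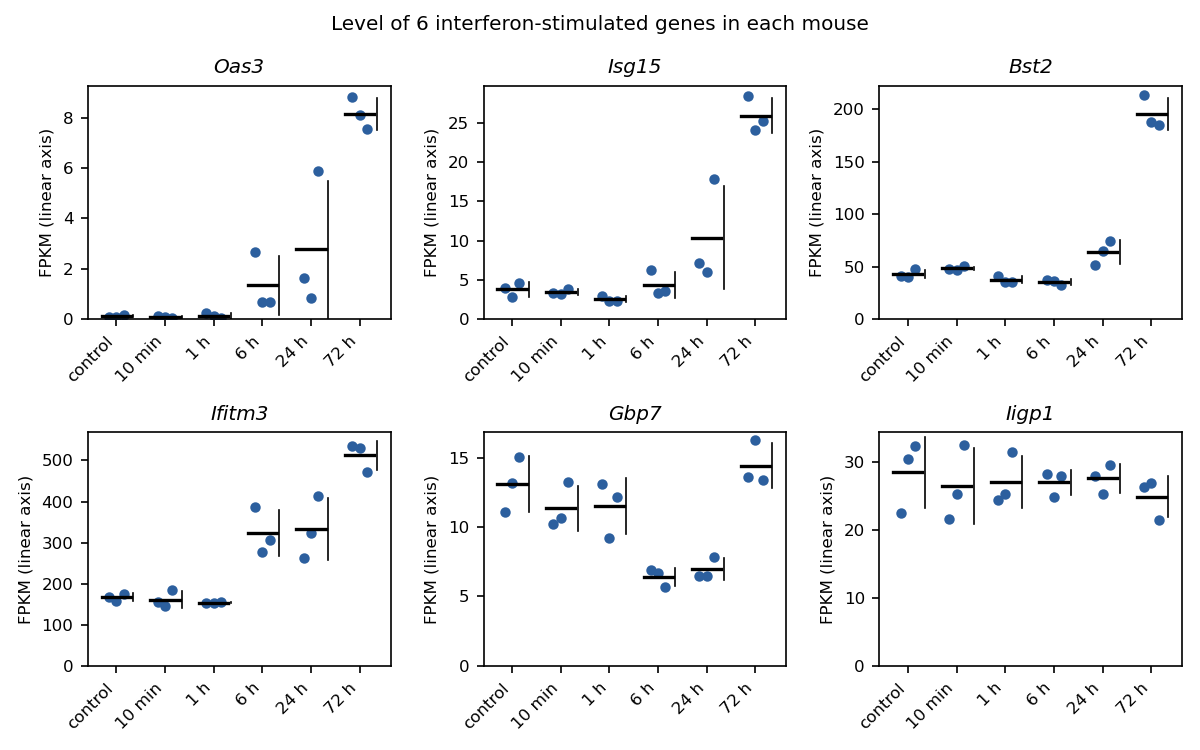
Each panel plots the FPKM (linear axis from 0) of 1 gene in every mouse by group; points are mice, the horizontal bar is the mean and the vertical bar at its right is the SD (n = 3). Oas3, Isg15, Bst2 and Ifitm3 are highest at 72 h, Gbp7 is lowest at 6 h and 24 h, and the groups of Iigp1 overlap.

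The sensors of nucleic acid, which detect viral RNA or unusual DNA and set off interferon production, all rose at 72 h. Dhx58 (LGP2), a regulator of the other RNA helicases, had 0.590, 0.654 and 0.795 FPKM in the control mice and 6.63, 5.37 and 5.74 at 72 h. No 72 h mouse was near a control mouse, the log2 fold change was 2.04, and the gene was also called higher at 24 h, by 0.49. That 24 h call held under 9 of the 15 alternatives. It was lost, among others, with no filter, with quantile normalization and without any 1 control mouse. Ifih1 (MDA5) had 5.36, 6.60 and 6.69 FPKM in the control mice and 12.4, 12.7 and 11.4 at 72 h, apart as well, and at 0.87 had the smallest rise of the 4. Ddx58 (RIG-I) fell by 0.45 at 6 h (limma adjusted p = 0.032) and was higher by 1.05 at 72 h. The fall at 6 h held under 7 of the 15 alternatives, being lost with no filter, with median-of-ratios scaling, with the replicate block, and without any 1 control mouse, 6 h replicate 2 or 6 h replicate 3. Zbp1, a sensor of left-handed nucleic acid that can start necroptosis, rose by 1.75 at 72 h, with a ratio of means of 21.1 from a control mean of 0.133 FPKM.

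The guanylate-binding proteins, GTPases that attack the vacuoles of intracellular microbes, were the only members called lower at 24 h. At 6 h Ifit2, Cmpk2, Ddx58, Ifi44 and Parp14 were called lower along with them. All 4 guanylate-binding protein genes were thus called lower than in the control mice at 6 h and again at 24 h. Of 5 endothelial markers, Kdr, Tek and Emcn were also lower at both times, while Pecam1 was higher at 6 h and Cdh5 was called at neither. Their summed level was 440 to 484 FPKM in the control mice, 458 to 588 at 6 h and 387 to 480 at 24 h. A sum gives most weight to the most abundant marker. The median log2 fold change of the 5 markers was -0.42 at 6 h and -0.39 at 24 h, against -0.08 and 0.13 for all genes. The part of endothelial content in the fall of the guanylate-binding protein genes was not tested. Gbp7 had 11.1, 13.2 and 15.1 FPKM in the control mice, 6.89, 6.70 and 5.67 in the 6 h mice, 6.49, 6.51 and 7.87 in the 24 h mice and 13.6, 16.3 and 13.4 in the 72 h mice. At 6 h and 24 h every mouse was below every control mouse, while the 72 h mice overlapped with the control mice. Its log2 fold change was -0.92 ± 0.13 at 6 h (limma adjusted p = 0.0036), -0.82 ± 0.13 at 24 h (limma adjusted p = 0.007) and 0.14 ± 0.12 at 72 h (limma adjusted p = 0.32).

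The other 3 differed in how far they came back. Gbp3 had 3.93, 3.89 and 5.18 FPKM in the control mice, 2.92, 2.74 and 2.20 in the 6 h mice, 1.97, 3.01 and 3.12 in the 24 h mice and 9.72, 7.83 and 8.41 in the 72 h mice. It was thus below the control mice in every 6 h and 24 h mouse and above them in every 72 h mouse, with changes of -0.55, -0.53 and 0.86. Gbp2 showed the same order with smaller changes, -0.36 at 6 h, then -0.52 at 24 h and finally 0.53 at 72 h, and the last became 0.13 and was not called with quantile normalization. Gbp5 had -0.84 at 6 h, -0.67 at 24 h and -0.29 at 72 h, the last with a limma adjusted p of 0.064. Between 24 h and 72 h all 4 rose, by 1.39 for Gbp3, 1.04 for Gbp2, 0.96 for Gbp7 and 0.38 for Gbp5, though the rise of Gbp5 was not called with median-of-ratios scaling or quantile normalization, or without any 1 of the 72 h mice.

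Leaving out 1 mouse touched the early falls. At 6 h the 4 guanylate-binding protein genes kept negative changes under each of the 15 alternatives, and Gbp5 and Gbp7 were called in each. At 24 h Gbp7 alone was called in each. Without control replicate 2 or control replicate 3 the members called lower at 24 h numbered 1 in place of 4, and at 6 h 3 in place of 9. The share of all genes called lower was then 2.99% or 3.51% at 24 h in place of 11.4%. At 6 h it was 7.63% or 6.4% in place of 16.8%.

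The immunity-related GTPases, a second family aimed at vacuoles of microbes, either rose at 72 h or, as for Iigp1, did not pass the test at any time. Irgm1 had 4.45, 5.44 and 5.41 FPKM in the control mice and 13.4, 13.7 and 12.3 at 72 h, apart, with a log2 fold change of 1.22. Igtp and Irgm2 rose by 0.64 and 0.59, and Irgm2 was not called with quantile normalization. These 2 genes share 162 exonic bases on the same strand in GENCODE M21, so their reads may be split between them. Iigp1 had 22.6, 30.5 and 32.5 FPKM in the control mice and 26.4, 27.0 and 21.5 at 72 h. Its groups overlapped at every time, and its 72 h change of -0.18 ± 0.14 had a limma adjusted p of 0.28. It was the only member with its 72 h mean below its 24 h mean.

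Among the other antiviral effectors, Bst2 and Ifitm3 were the most abundant members. Bst2 (tetherin, which holds budding virus at the cell surface) had 41.4, 39.8 and 47.8 FPKM in the control mice, 51.8, 65.3 and 74.6 at 24 h and 213, 188 and 185 at 72 h. The 3 groups were apart, with changes of 0.55 ± 0.15 at 24 h and 2.16 ± 0.09 at 72 h. Ifitm3, which stops viruses at the endosome membrane, had the highest mean of the 38 in every group. It had 168, 157 and 176 FPKM in the control mice against 387, 278 and 306 in the 6 h mice, 262, 323 and 414 in the 24 h mice and 534, 531 and 471 in the 72 h mice. All mice from 6 h on were above the control mice, and the changes were 0.94 ± 0.12 at 6 h (limma adjusted p = 0.0029), 0.97 ± 0.16 at 24 h and 1.61 ± 0.08 at 72 h. It was the only member called higher at 6 h under each of the 15 alternatives, and likewise at 24 h.

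Rsad2 (viperin) and its neighbour Cmpk2, which together supply a chain-ending nucleotide, were low early. Cmpk2 had 14.2, 15.9 and 16.7 FPKM in the control mice, 8.16, 8.49 and 7.28 at 6 h and 35.5, 33.4 and 28.2 at 72 h. The 6 h mice lay below and the 72 h mice above the control mice, with changes of -0.89 ± 0.10 (limma adjusted p = 0.0017) and 1.00 ± 0.10. Rsad2 had 4.90, 5.36 and 5.18 FPKM in the control mice, 4.60, 3.09 and 2.79 at 6 h and 9.70, 10.8 and 9.27 at 72 h. It was below the control mice at 6 h without passing the test (limma adjusted p = 0.056) and rose by 0.83 at 72 h.

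The remaining 6 members rose at 72 h, at very different sizes. Rtp4, a chaperone of receptors with antiviral action, had 6.37, 7.81 and 8.94 FPKM in the control mice and 31.4, 30.8 and 27.2 at 72 h, apart, with a log2 fold change of 1.83. Tap1, the peptide transporter that feeds MHC class I, rose by 1.49, Ifi44 by 1.42, the ADP-ribosyltransferase Parp14 by 0.97 and the pro-apoptotic Xaf1 by 0.84. Ifi44 and Parp14 had fallen at 6 h, by 0.62 and 0.60. Ifi35 had 9.004, 8.13 and 9.94 FPKM in the control mice and 12.7, 11.6 and 11.8 at 72 h, apart, with a log2 fold change of 0.38, which became -0.03 with quantile normalization. In GENCODE M21, 290 exonic bases of Ifi35 lie under the antisense gene Gm11626, 212 of Tap1 under Psmb9, and Rtp4 and Gbp7 share 296 and 637 with a gene on their own strand.

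The comparison of 72 h with 24 h uses none of the control mice. It called 35 of the 38 members higher and 0 lower, beside 29.7% and 13.5% of all genes, with a median change of 1.14 against 0.13. All 3 mice at 72 h lay above all 3 at 24 h in 35 members and below in 0, beside 37.3% and 19.1% of all genes. On the log2(FPKM + 1) scale the largest changes were those of Ifit3 (1.68), Mx1 (1.65), Ifi44 (1.64) and Bst2 (1.61). By the ratio of means the order was Mx1 (7.15), Dhx58 (4.29), Ifi44 (3.78) and Zbp1 (3.59). Oas2, Ifi35 and Iigp1 were not called, with 0.69, 0.19 and -0.15. Of the 35, 27 were called under every alternative that tested them. Oas3, with 1.51 ± 0.43, was not called without 24 h replicate 1 or 24 h replicate 2, or without any of the 3 mice of the 72 h group, and was called without 24 h replicate 3, its highest 24 h mouse.

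**Figure D3:**
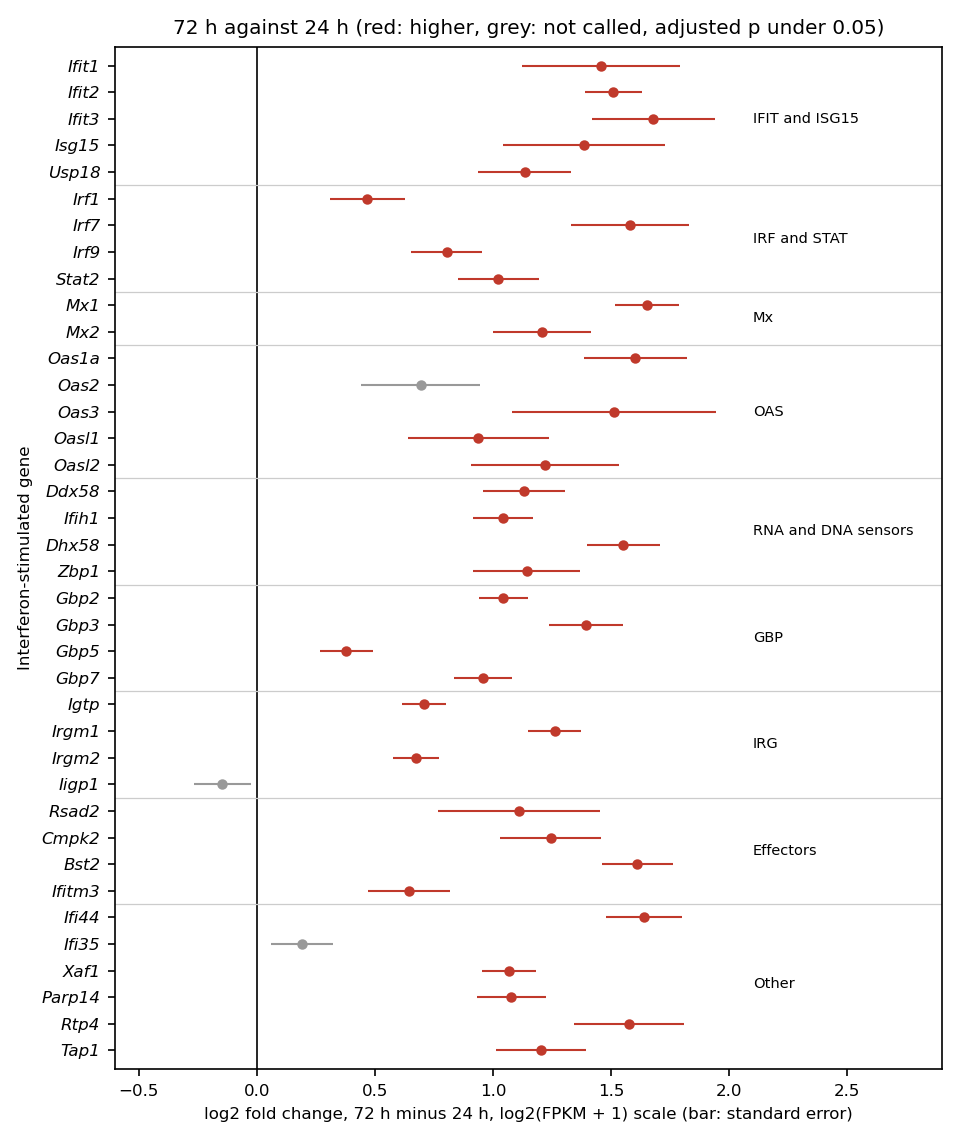
Points are log2 fold changes of the 38 genes from 24 h to 72 h on the log2(FPKM + 1) scale with their standard errors (n = 3 per group), ordered by role; red marks an adjusted p under 0.05. All points but that of Iigp1 lie right of 0, and Oas2, Ifi35 and Iigp1 are grey.

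Against 6 h, 36 members were higher at 72 h and 0 lower, beside 50.3% and 16.7% of all genes, and Igtp and Iigp1 were not called. The mice of these groups lay apart, those at 72 h above, in 36 members and below in 0, beside 54% and 18.6% of all genes. From 1 h to 6 h, 2 were called higher and 6 lower, beside 9.32% and 11.2% of all genes. Those higher were Ifitm3 (1.06) and Irf9 (0.44), and those lower were Cmpk2 (-0.81), Gbp5 (-0.77), Gbp7 (-0.74), Ifi44 (-0.65), Ifit2 (-0.57) and Gbp3 (-0.46). From 6 h to 24 h only Oas1a (1.25) and Bst2 (0.82) were called higher and 0 lower, beside 12.5% and 1.94% of all genes. At an unadjusted p under 0.05 in that step, 10 were higher and 0 lower. The share of all genes at that threshold was not counted, so nothing is read from these 2 numbers. The median change in that step was 0.35 for the members and 0.20 for all genes.

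Single mice stood apart within the 6 h and 24 h groups. At 24 h, replicate 3 had the highest value of its group in 36 of the 38 members, against 44.5% of all genes. It was above all control mice in 27 members, beside 55.2% of all genes. Replicates 1 and 2 of that group were so in 14 each, beside 49% and 55.2% of all genes. Without replicate 3, 9 members were called higher and 9 lower at 24 h in place of 8 and 4. The shares of all genes were then 25.6% higher and 10.8% lower, in place of 26.2% and 11.4%. At 6 h, replicate 1 was the highest in 30 of the 38, against 32.6% of all genes. Without it, 13 members were called lower at 6 h in place of 9, beside 12.6% of all genes in place of 16.8%.

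The same 2 mice held the most neutrophil RNA of their groups. The 5 neutrophil markers found in the table (S100a8, S100a9, Csf3r, Retnlg and Mmp9) summed to 960 FPKM in replicate 1 at 6 h, beside 112 and 368 in the others. At 24 h they summed to 953 in replicate 3, beside 207 and 42.7. The pan-leukocyte markers Ptprc, Laptm5, Coro1a, Cd53 and Cd52 summed to 80.7 FPKM in that 6 h mouse, beside 28.3 and 47.7, and to 242 in that 24 h mouse, beside 107 and 114. The part of leukocyte content in the values of these mice was not tested.

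**Figure D4:**
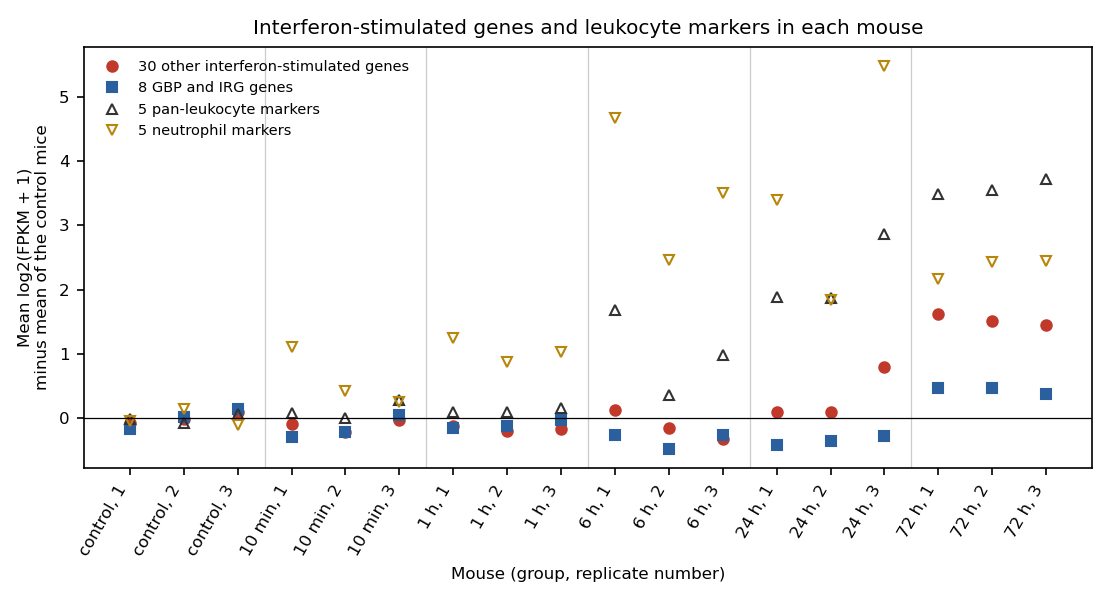
For each mouse, points are the mean log2(FPKM + 1) of the 8 GBP and IRG genes, the other 30 interferon-stimulated genes, 5 pan-leukocyte markers and 5 neutrophil markers, minus the mean of the control mice. The neutrophil markers peak in replicate 1 at 6 h and replicate 3 at 24 h, and the 3 mice at 72 h are the highest of all for the pan-leukocyte markers and both sets of interferon-stimulated genes.

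Cell content also moved with the rise at 72 h. In bulk tissue, more or fewer cells of a type and more or less RNA per cell cannot be told apart. All 5 pan-leukocyte markers were higher at 72 h, with a summed level of 17.4 to 21.6 FPKM in the control mice and 325 to 351 at 72 h. All 7 macrophage markers were higher, from 185 to 216 FPKM up to 1808 to 2315, and all 5 monocyte markers, from 2.07 to 2.84 up to 96.0 to 121. All 5 fibroblast markers were higher, and all 6 cardiomyocyte markers lower with a median of -1.49, though the label of heart holds, with Tnnt2 at a mean of 10684 FPKM at 72 h. Summed T cell markers went from 0.773 to 1.20 FPKM in the control mice up to 4.86 to 7.90, and those of NK cells from 0.340 to 0.852 up to 1.94 to 3.27, with Cd3e and Ncr1 below 1 in all mice. Of 4 plasmacytoid dendritic cell markers, Siglech, Ccr9 and Pacsin1 were below 1 in all mice, and Cox6a2 is also a heart muscle gene. The part of these cells in the members' changes was not tested.

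Interferon genes themselves were listed at or near 0. Of 21 listed, none reached an FPKM of 1 in any mouse, so none was tested. Listed at 0 in all 18 mice were 16, namely Ifna1, Ifna2, Ifna4, Ifna5, Ifna6, Ifna7, Ifna9, Ifna11, Ifna12, Ifna13, Ifna14, Ifna15, Ifna16, Ifne, Ifnl2 and Ifnl3. Ifnb1 (interferon beta) had 0.102 FPKM in 1 mouse at 6 h, 0.0843 and 0.0761 in 2 mice at 24 h and 0.143 and 0.144 in 2 mice at 72 h, and was listed at 0 in the other 13. Ifng (interferon gamma) had 0.0539 in 1 control mouse and 0.0226, 0.0454 and 0.0955 in the 3 mice at 72 h, and was at 0 elsewhere. Ifnz stayed between 0.00535 and 0.153 in all mice, Ifnk had 0.0797 in 1 mouse at 72 h, and Ifnab had at most 0.0153. No comparison was made at these levels.

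Both chains of the type I receptor were higher at 72 h, both chains of the lambda receptor lower, and the chains of the gamma receptor went apart. At 72 h Ifnar1 was higher by 1.55, Ifnar2 by 1.15 and Ifngr1 by 0.79, and every 72 h mouse was above every control mouse for each. Ifngr2 was lower by 0.41, the lambda receptor chain Ifnlr1 by 0.57 and its partner Il10rb by 0.27, with every 72 h mouse below every control mouse. These 6 directions held under both other scalings. Ifngr2 also fell early, from 258, 275 and 253 FPKM in the control mice to 133, 133 and 170 at 6 h, a change of -0.86.

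The genes that carry or restrain the signal were all higher at 72 h, 11 of 11, beside 53.1% of all genes. Their median change was 0.81, against 0.29 for all genes. After median-of-ratios scaling 10 of them, and after quantile normalization 8, were still called higher, with 0 lower. Of all genes, 39.3% and 32.9% were then called higher and 35.7% and 42.8% lower. The largest were Ptpn6 (3.32), a phosphatase of blood cells, Irf8 (2.89), a factor of myeloid cells, and Socs3 (2.58), a feedback inhibitor of cytokine signals. Of 19 genes that sense nucleic acid or lead to interferon production, 18 were higher and 1, the adaptor Mavs (-0.83), lower at 72 h, where 53.1% of all genes were called higher. After median-of-ratios scaling 15 of them were called higher, beside 39.3% of all genes, and after quantile normalization 13, beside 32.9%, with 1 lower in each. The largest were the endosomal DNA receptor Tlr9 (3.04), the factor Irf5 (2.93) and Unc93b1 (2.89), which carries such receptors to the endosome.

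A further 42 interferon-stimulated genes outside the set of 38 served as a comparison, of which 40 were tested. Of these, 5 were called higher and 14 lower at 6 h, 8 higher against 4 lower at 24 h, and 34 against 2 at 72 h. The share of all genes called higher was 11.6%, 26.2% and 53.1% in turn, and the share called lower 16.8%, 11.4% and 24.2%. The 8 of 40 higher at 24 h were thus a smaller share than that of all genes. The 2 lower at 72 h were Gbp4 (-0.72) and Cd274 (-0.28). Their median change was 1.16 at 72 h, beside 1.27 for the 38 members. The largest were Ifi30 (3.95), a lysosomal thiol reductase of antigen presentation, the DNA sensor Ifi204 (3.41) and the chemokine Cxcl10 (3.36). Of the guanylate-binding proteins among them, Gbp4 and Gbp9 were lower at 24 h, by 1.00 and 0.80, and Gbp6 had -0.24 without passing the test. The chemokine Cxcl9 was lower at 24 h by 1.55 and had -0.25 at 72 h without passing the test.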

How the data were processed

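Per the labels and the study's methods, the authors used cutadapt 1.18 for trimming, HISAT2 2.1.0 for mapping to mm10 and StringTie 1.3.4d for FPKM. The annotation is not given in the sources used here. The deposited values are FPKM of gene symbols in 18 libraries, and all 18 columns were used; 4 columns with misspelt names were matched by title. FPKM sums ran from 542418 to 600467. Counts were not used here, so counting error is unknown; relative depth, from FPKM up to 0.3, ran from 0.814 to 1.32 times that of control replicate 1.

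Genes that reached an FPKM of 1 in any mouse (13333) entered the test as log2(FPKM + 1) with limma 3.58.1 in R 4.3.3 (lmFit, eBayes with trend), on the 6 mice of a comparison, two-sided, less the few genes constant over those mice (13297 to 13331 left). P-values were adjusted over all of these by Benjamini-Hochberg. Called means an adjusted p under 0.05. The labels give no batch. No replicate columns were identical. The members and all lists were chosen with earlier results of these data known. All members are named; values by mouse are given for the member with the largest called and the smallest 72 h change of each role and for the 3 largest calls at 6 h and 24 h, with some further genes chosen after their values were seen. Of each other pathway list, the 3 largest calls at 72 h are named, with all ligands and receptors; 1 gene of these lists is not reported by name here. Gene positions are from GENCODE M21. Near-identical paralogues (Ifit, Oas and Gbp genes) may share reads. Steps were tested on simulated data. Plots used Python 3.11.15, pandas 2.3.3 and matplotlib 3.10.9. Alternatives were a pseudocount of 0.1, other filters and scalings, a fit of all 18 mice, a replicate block, no variance trend and leaving out each mouse.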

Additional observations from a re-analysis of the deposited data

Results flagged for a closer look

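Of the members, 7 were called lower than control at 6 h and higher at 72 h by limma. The direct comparison of 72 h with 6 h was also called for each. Of all genes, 16.8% were called lower at 6 h, 53.1% higher at 72 h and 50.3% higher at 72 h than at 6 h. The share of all genes with these calls together was not counted. The direct comparison reuses the same 6 h and 72 h mice, so its calls are not separate support. That direct log2 difference was 2.13 for Ifit2 (adjusted p = 7.1e-06), 2.05 for Ifi44, 1.89 for Cmpk2 (adjusted p = 4.2e-06), 1.57 for Parp14, 1.50 for Ddx58, 1.42 for Gbp3 and 0.89 for Gbp2. Of these, Gbp3 and Gbp2 were also called lower at 24 h, with direct differences from 24 h to 72 h of 1.395 (adjusted p = 0.00052) and 1.04 (adjusted p = 0.0003). Without any 1 control mouse Ddx58, Gbp2, Gbp3 and Ifi44 were no longer called at 6 h, and without control replicate 2 or control replicate 3 neither were Ifit2 and Parp14; Cmpk2 was called at 6 h under each of the 15 alternatives.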

How the results depend on the processing

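Of the 35 members higher at 72 h against control, 31 were called under each of the 15 alternatives that tested them, and so were 27 of 35 against 24 h and 30 of 36 against 6 h. Over all comparisons, 1889 values of called members kept their call under an alternative, 199 lost it and 5 turned sign without being called. Those that turned were, at 72 h against control, Irf1 (-0.025 under median-of-ratios scaling, -0.071 under quantile normalization) and Ifi35 (-0.026 with quantile normalization), and against 6 h with quantile normalization Gbp5 (-0.023) and Ifi35 (-0.019). The cause was not tested.

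For 24 h against control, 4 were higher with no filter and with quantile normalization in place of 8, beside 16.6% of all genes in each in place of 26.2%. With quantile normalization 8 were lower in place of 4, beside 20.2% of all genes in place of 11.4%. For 6 h against 1 h, 3 were lower with no filter and with median-of-ratios scaling in place of 6. Beside these, 6.13% and 8.24% of all genes were lower in place of 11.2%. For 24 h against 6 h, 14 were higher and 1 lower in the fit of all 18 mice in place of 2 and 0. That fit called 36.4% of all genes higher and 7.52% lower, in place of 12.5% and 1.94%. In that comparison 1 was higher with no filter, 1 with quantile normalization and 0 with median-of-ratios scaling, beside 5.35%, 2.78% and 3.02% of all genes. At 72 h, 2 were lower than control (Gbp5 and Iigp1) and 1 lower than at 6 h with median-of-ratios scaling, and the same numbers with quantile normalization, in place of 0. Of all genes, 35.7% and 42.8% were then lower than control, in place of 24.2%. Lower than at 6 h were 30.5% and 34.3%, in place of 16.7%.

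Leaving out single mice gave the ranges of members below. In the same runs, 9.47% to 30.3% of all genes were higher and 2.75% to 13.5% lower at 24 h against control. At 6 h against control 5.73% to 13.4% were higher and 6.4% to 21.7% lower. From 1 h to 6 h 3.44% to 9.92% were higher and 2.72% to 14.8% lower, and from 6 h to 24 h 0.0075% to 13.1% were higher. For 24 h against control, 1 to 9 were higher, with 1 without control replicate 1 or control replicate 2, 2 without control replicate 3 and 9 without 24 h replicate 3, and 1 to 9 lower, with 1 without control replicate 2 or control replicate 3. For 6 h against control, 1 to 4 were higher, with 1 without any control mouse, and 3 to 13 lower, with 5 without control replicate 1 and 3 without control replicate 2 or control replicate 3. For 6 h against 1 h, 1 to 4 were higher and 2 to 8 lower, with 1 higher without any 1 h mouse or 6 h replicate 2, 4 without 6 h replicate 3, and 2 or 3 lower without any 1 h mouse or 6 h replicate 2. For 24 h against 6 h, 0 to 3 were higher, with 0 without any 6 h mouse or 24 h replicate 2 and 3 without 24 h replicate 1. At 72 h, 35 were higher than control in each case and 0 to 2 lower (2 without control replicate 1), 28 to 37 were higher than at 24 h and 35 to 36 higher than at 6 h. Of all genes, 50.1% to 52.7% were then higher than control and 22.1% to 23.8% lower. Higher than at 24 h were 21% to 36.1%, and higher than at 6 h 44.6% to 49.7%.

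Replicate numbers did not pair the mice: in no comparison did all 3 same-numbered pairs correlate above 0.1, and not every mouse correlated best with its own number. With the replicate block, 5 in place of 9 were lower at 6 h against control, beside 11.8% in place of 16.8% of all genes. At 24 h against 6 h, 0 in place of 2 were higher, beside 0.0075% in place of 12.5%. Counts of members in the other comparisons stayed within 1.5 times. The table gives no counts, so limits on low genes such as the interferons cannot be stated.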
